A study of Mus musculus with 115 samples.

Results

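Small nucleolar RNAs (snoRNAs) and small Cajal body RNAs (scaRNAs) were examined in the prostates of male (TRAMP x WSB) F2 mice. Members were all autosomal genes of the expression table that GENCODE M21 names Snord, Snora or Scarna and that had a mean of at least 1 TPM over all libraries. The table holds 45699 genes, 150 of them with these names, and 43 of the 146 on autosomes were members. They were thus chosen by their own mean level, so that level is given as a description. They comprise 4 Snord, 32 Snora and 7 Scarna genes. All libraries form 1 group of bulk prostate tissue from F2 males of the TRAMP and WSB/EiJ cross. The paper took organ weight as tumor burden without a pathological check, and the tumor content of each library was not tested. The TRAMP transgene drives SV40 T antigen from the probasin promoter in prostate epithelium. The paper describes its F2 males as positive for the transgene. It also describes RNA sequencing of fewer prostates than there are libraries here. The sample labels name the cross but not the transgene. Whether every library carries the oncogene was not tested. The mice were killed at a set age or at a humane endpoint, and RNA of small prostates was taken from the ventral lobe.

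Box C/D snoRNAs (Snord) guide 2′-O-methylation and box H/ACA snoRNAs (Snora) guide pseudouridylation, mainly of ribosomal RNA. The scaRNAs (Scarna) carry either or both kinds of box, reside in Cajal bodies and guide the same modifications of spliceosomal RNAs. Most vertebrate snoRNAs are cut from introns of host genes, many of which encode ribosomal or nucleolar proteins, while a few have promoters of their own. Some snoRNAs, among them Snora73 and Snord22, take part in the cleavage of ribosomal RNA precursors rather than in its modification.

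The sequences below are those of some of the members described in the results, chosen because relations with a marker, a host or a near-copy are given for them, with the shortest member (Snord22) and the longest gene of these names that had no value in any library (Snora26). They are from the GENCODE M21 transcripts (GRCm38), written 5′ to 3′ on the strand of the gene. Capitals mark ACA followed by 3 bases at the 3′ end, or, in the box C/D genes and in Scarna6, TGATGA in the first 20 bases (C box) and the last CTGA in the last 20 (D box).
Snora73a: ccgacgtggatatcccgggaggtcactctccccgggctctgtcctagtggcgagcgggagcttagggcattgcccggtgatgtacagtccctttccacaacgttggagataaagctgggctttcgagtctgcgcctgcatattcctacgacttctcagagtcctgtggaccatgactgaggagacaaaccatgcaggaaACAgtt
Snora73b: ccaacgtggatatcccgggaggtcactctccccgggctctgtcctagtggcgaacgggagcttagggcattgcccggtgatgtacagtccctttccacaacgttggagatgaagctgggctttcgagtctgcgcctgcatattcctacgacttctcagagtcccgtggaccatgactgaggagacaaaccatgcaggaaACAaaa
Scarna13: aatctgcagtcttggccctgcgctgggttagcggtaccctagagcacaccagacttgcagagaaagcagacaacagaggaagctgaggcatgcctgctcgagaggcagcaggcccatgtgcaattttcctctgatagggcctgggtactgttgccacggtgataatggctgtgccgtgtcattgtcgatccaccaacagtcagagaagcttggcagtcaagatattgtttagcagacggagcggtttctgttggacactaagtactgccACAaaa
Scarna6: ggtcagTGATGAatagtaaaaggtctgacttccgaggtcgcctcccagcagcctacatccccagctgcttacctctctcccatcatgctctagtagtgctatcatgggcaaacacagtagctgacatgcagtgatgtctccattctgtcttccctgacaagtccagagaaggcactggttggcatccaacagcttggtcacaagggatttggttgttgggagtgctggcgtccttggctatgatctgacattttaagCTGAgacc
Snord17: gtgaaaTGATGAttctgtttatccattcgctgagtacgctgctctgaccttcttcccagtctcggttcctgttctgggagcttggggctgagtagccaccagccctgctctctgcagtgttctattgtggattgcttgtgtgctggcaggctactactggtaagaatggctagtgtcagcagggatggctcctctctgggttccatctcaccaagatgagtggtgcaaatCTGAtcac
Snord15a: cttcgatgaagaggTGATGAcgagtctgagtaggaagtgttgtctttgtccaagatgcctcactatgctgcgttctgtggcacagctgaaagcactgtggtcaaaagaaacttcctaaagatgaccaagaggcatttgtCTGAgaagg
Snora61: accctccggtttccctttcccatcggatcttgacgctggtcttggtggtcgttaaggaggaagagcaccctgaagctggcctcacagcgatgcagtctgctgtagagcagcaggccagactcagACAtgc
Snora75: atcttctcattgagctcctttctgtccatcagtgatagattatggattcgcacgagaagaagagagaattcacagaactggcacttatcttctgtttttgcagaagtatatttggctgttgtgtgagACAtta
Snord22: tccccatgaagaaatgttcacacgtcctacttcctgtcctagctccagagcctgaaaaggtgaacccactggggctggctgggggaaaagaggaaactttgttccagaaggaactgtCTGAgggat
Snora26: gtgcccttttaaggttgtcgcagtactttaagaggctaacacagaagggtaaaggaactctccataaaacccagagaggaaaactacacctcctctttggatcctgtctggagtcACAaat
Snora73a lies at chr4:132352775-132352979 on the minus strand and Snora73b at chr4:132352322-132352526 on the same strand. The 2 sequences have the same length and differ at 7 of 205 bases (96.6% identical), so reads could be divided between them. Scarna13 is at chr12:105031075-105031349 (minus), Scarna6 at chr1:87784556-87784820 (plus) and Snord17 at chr2:144265979-144266216 (minus). Snord15a is at chr7:99482785-99482932 (minus), Snora61 at chr4:132310240-132310369 (plus) and Snora75 at chr1:86351169-86351301 (minus). Snord22 is at chr19:8725866-8725991 (plus) and Snora26 at chr5:74093530-74093650 (plus).
ACANNN, searched on the gene's strand only, ended 27 of the 32 Snora members (84.4%), 2 of the 7 Scarna members and 0 of the 4 Snord members. It ended 1.37% of 4224 other autosomal genes of 126 to 414 bases that the annotation does not type as snoRNA or scaRNA. TGATGA stood in the first 20 bases of 3 of the 4 Snord members and of 66 of the 93 Snord genes at 0 in every library (71%), against 0.876% of the other genes. CTGA stood in the last 20 bases of all 4 Snord members and of 91 of those 93 (97.8%), against 10.2% of the other genes. The first and last 20 bases of a gene do not overlap at these lengths.

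Length separated the genes that had a value from those that did not. All 96 autosomal genes shorter than 126 bases were listed at 0 in every library, and all 50 of at least 126 bases had a value in at least 1 library. Of these 50, 43 were members. The longest gene at 0 throughout was Snora26, with 121 bases, and the shortest with a value was Snord22, with 126. The families differed accordingly, since 93 of 98 Snord genes (median length of 84.5 bases) were at 0 in every library, against 1 of 39 Snora genes (median of 133) and 2 of 9 Scarna genes. The box C/D genes are therefore almost wholly outside the members. An exact 0 in these files can be a failed estimate, so these genes are described as listed at 0.
The same held among all autosomal genes of the table. All 3907 whose longest transcript is under 120 bases were listed at 0 in every library. The share was 81.5% from 120 to under 130 bases, 61.5% up to 140, 44.4% up to 160, 33.6% up to 200 and 5.67% from 200 to 499. Read pairs of 126 bases were sequenced from cDNA fragmented to about 275 bp, and the part of fragment and read length in the zeros was not tested.

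**Figure D1:**
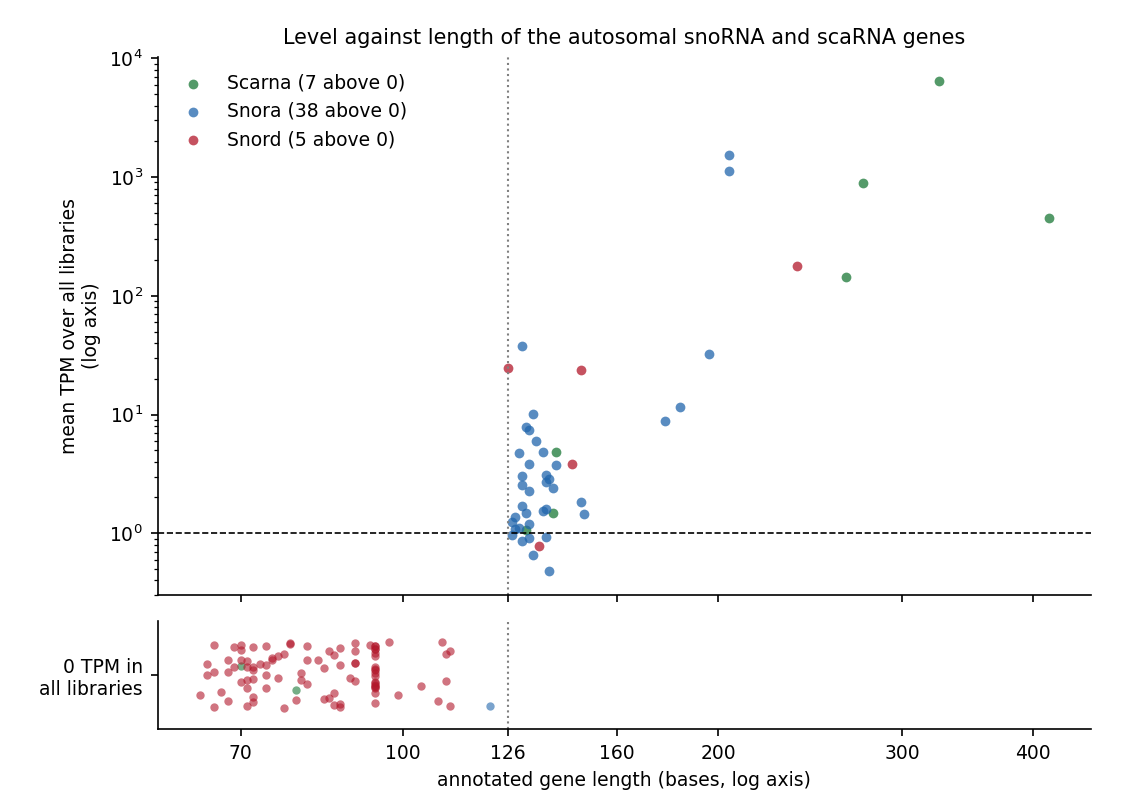
Mean TPM over all libraries (log axis) against annotated gene length in bases (log axis) of the autosomal genes, coloured by family, with genes at 0 in every library in the lower strip (spread vertically for display). The dotted line marks 126 bases and the dashed line the threshold of 1 TPM, and no gene left of the dotted line has a value.

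The 8 members never listed at 0 were also the 8 longest, with 196 to 414 bases. TPM is scaled by transcript length, but whether it can be compared between genes near or below the fragment size was not tested. Levels of genes of different length are therefore a description. For autosomal genes of these names, the median over genes of their median above 0 changed with length. It was 19.4 TPM from 120 to under 130 bases, 11.8 up to 140 and 6.87 up to 160. From there it was 9.84 up to 200 and 849 from 200 to 499. Scarna10, a composite guide of a spliceosomal RNA at chr6:125186359-125186683 on the minus strand, had 367 to 27946 TPM with a median of 2911. It ranked 7 among all genes by mean TPM. Its share of the summed TPM of the members ran from 7.71% to 87.6% with a median of 39.5%, so in some libraries a total over the members mostly holds this 1 gene.
Snora73a had 530 to 3848 TPM (median of 1388, mean of 1532 ± 718 SD over all libraries). Snora73b had 358 to 3049 TPM (median of 1001, mean of 1126 ± 539 SD). Both genes were above 0 in every library, with ranges that overlapped, and how reads were divided between these near-copies was not tested.
Scarna13 had 212 to 2110 TPM (median of 849). Scarna2, on the minus strand of chr3:108554338-108554751 with no host gene, had 84.5 to 1124 TPM (median of 420). Snord17 had 52 to 669 TPM (median of 151). Between neighbours in this order the ranges overlapped.
Scarna6 had 29.6 to 668 TPM (median of 102.5). Snora74a had 4.94 to 128.8 TPM (median of 25.1) and was the lowest of the 8. Its highest value was below the lowest value of Scarna10.

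The other 35 members were listed at 0 in at least 1 library, and 31 of the 43 had a median of 0. Snora61, at 0 in 25 libraries, had a median of 25.7 TPM and a highest value of 252. Snord22 was at 0 in 83 libraries and reached 463 TPM. Snord15a was at 0 in 5 libraries (median of 17.9, highest of 96.6) and Snora23 in 1 (median of 9.82, highest of 42.2). Of the remaining scaRNAs, Scarna3a was above 0 in 42 libraries (highest of 43.2 TPM), Scarna3b in 13 (highest of 29.1) and Scarna8 in 7 (highest of 23.1). Their values above 0 had medians of 10.2, 11.5 and 15.2 TPM, so these genes were either at 0 or well above the threshold.
A library had between 11 and 28 members above 0, with a median of 18, and none (0) had all 43. Across libraries this number ran with the number of other genes of 126 to 150 bases above 0, which was 21 to 78 per library, with r = 0.385 over 79 libraries and r = 0.518 over 36. The points share library, depth and read length, so the correlation is a description. Just inside the threshold were Snora44 (mean of 1.11 TPM), Snora78 (1.09) and Scarna8 (1.07), each above 0 in at most 9 libraries. Just outside were Snora28 (0.962), one of the overlapping genes named Snora16a (0.927) and Snora36b (0.919). With a median of at least 1 TPM in place of the mean, 12 genes would have been members.
Another annotated gene was near-identical (95% identity over 80% of the length) for 12 of the 43 members, and 28 shared exon bases with another annotated gene, so their values are uncertain where reads can be split. The library kit was not described as keeping the strand, so reads of Snora73a and Snora73b cannot be told apart from those of the antisense gene Gm17300 that overlaps both, and 159 bases of Snora73a lie in exons of Snhg3.

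**Figure D2:**
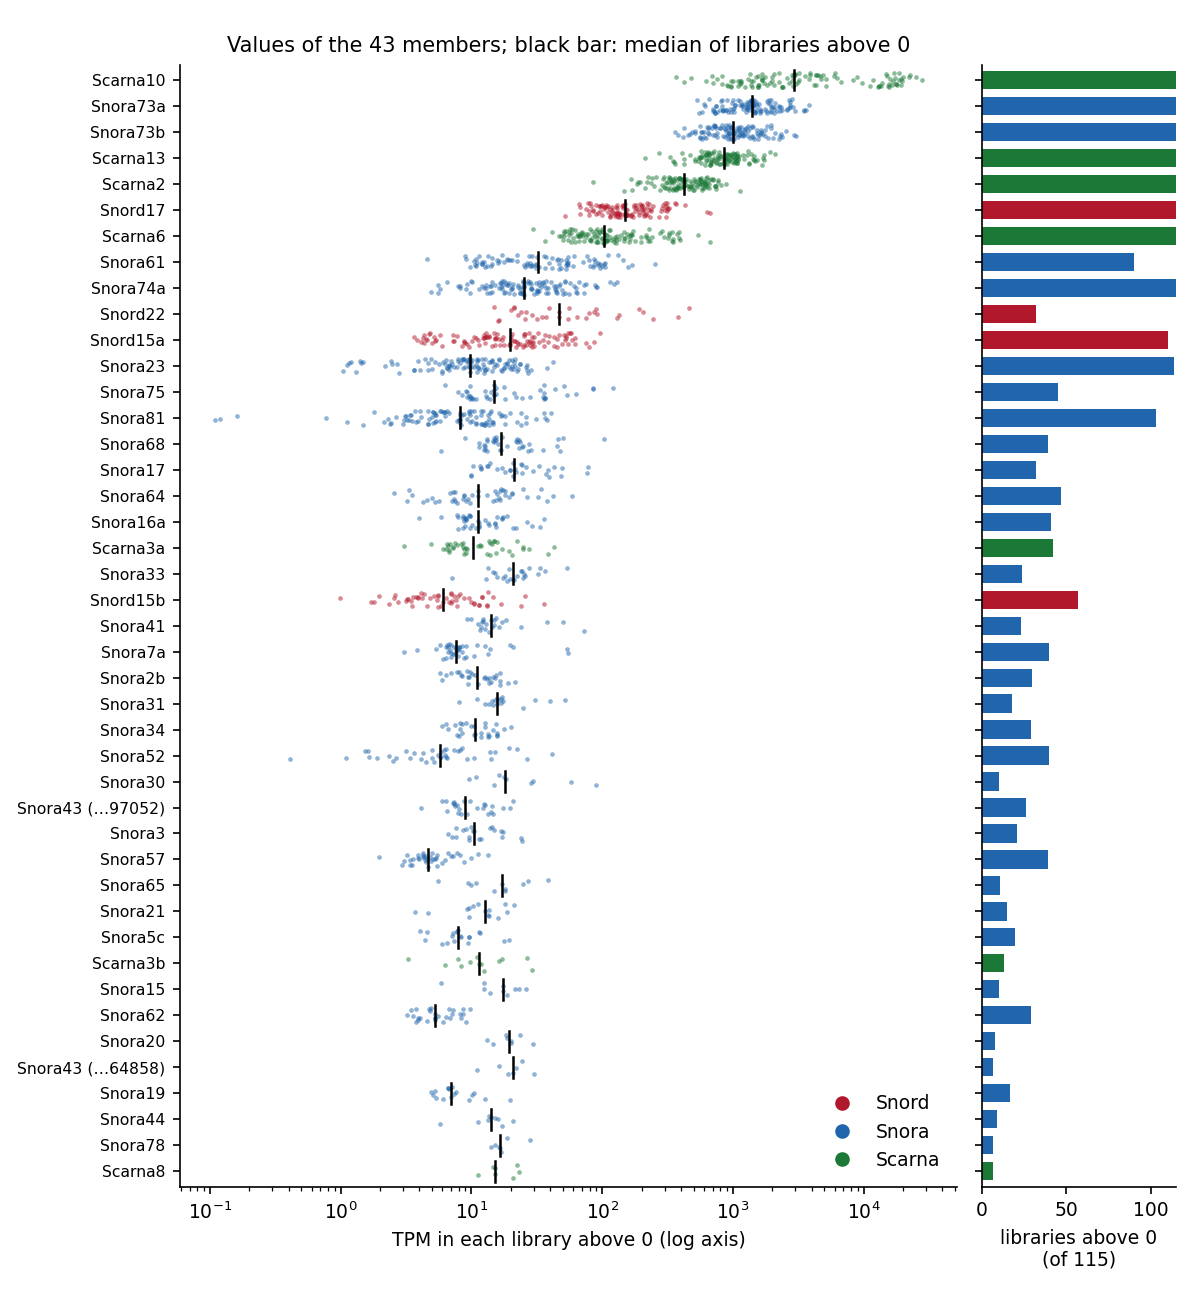
TPM of each of the 43 members in each library where it is above 0 (left, log axis, 1 point a library, black bar at the median of those libraries) and the number of libraries above 0 (right), coloured by family. The 8 longest members fill all libraries, and Scarna10 spans 367 to 27946 TPM.

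Expression separated the libraries into 79 and 36 on the first principal component, so relations between genes were computed within each and were neither pooled nor compared. The tissue was checked with Hoxb13 (0.02 to 138 TPM, median of 55.2) and Tgm4 (0.64 to 16895, median of 2963), which mark prostate luminal cells and were near 0 in some libraries. The summed level of 7 seminal vesicle genes ran from 1.92 to 172504 TPM in the 79 libraries, with a median of 1144.52. In the 36 libraries the median of this sum was 5.575 TPM. How much seminal vesicle tissue each library holds was not tested. Depth per library is not kept in TPM. The 20 genes with the largest share, Scarna10 among them, took 48.9% to 81.8% of the TPM of a library, so TPM was first divided by median-of-ratios factors (0.432 to 1.65). The last 21 columns of the table stand apart from the other 94. They are also the last 21 libraries in the order of their sample identifiers. No label gives a batch, and this was noticed after the values were seen. The 21 comprise 6 of the 79 libraries and 15 of the 36. The 6 carry the consecutive column names W5000 to W5005. They had 0.39 to 0.93 TPM of Mki67 against 0.4 to 25.7 in the other 73. The 15 had 73.6 to 144 TPM against 20 to 132.6 in the other 21. Relations are therefore also given without the last 21 columns, within the 15, or with the position as a covariate. In bulk tissue, fewer cells of a type and less RNA per cell cannot be told apart. Slopes below are the change in the log2(scaled TPM + 1) of a gene for 1 unit of log2(scaled TPM + 1) of the marker, from limma, with their SE and with Benjamini-Hochberg adjustment over all genes tested. On this scale the change of low genes is understated.

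Mki67, a marker of cycling cells, was used to ask whether the members move with proliferation. In the 79 libraries it ran from 0.39 to 25.7 TPM (median of 4.23). With rising Mki67, 2 of the 43 members rose and 3 fell (adjusted p under 0.05). Over all 14622 genes tested, 22.6% rose and 21% fell, so the members' shares of 4.65% and 6.98% were below the background in both directions. Their slopes were also less precise, with a median SE of 0.16 against 0.04 over all genes. All 5 called members were among the 8 never at 0. The calls of the 2 that rose held in the 73 libraries without the end columns, and those of the 3 that fell did not. The median slope of the members was 0.04 and that of all genes -0.01.
Both members that rose were scaRNAs. Scarna10 ran from 367 to 6668 TPM in these libraries (median of 1757) and had a slope of 0.57 ± 0.08 (adjusted p = 1.01e-09). Over the 79 libraries Pearson's r with Mki67 was 0.651 and Spearman's rho 0.659, both with a permutation p of 1e-05, which is as low as 100000 resamples go, and r stayed at 0.651 when the 2 most extreme libraries in Mki67 were left out. Scarna2, a guide of a spliceosomal RNA, ran from 84.5 to 888 TPM (median of 384) and had a slope of 0.22 ± 0.05 (adjusted p = 8.06e-05). Its r was 0.466 and its rho 0.457 (permutation p = 2e-05 and 4e-05). In the 73 libraries the slopes were 0.51 for Scarna10 (r = 0.567, adjusted p = 1.4e-06) and 0.15 for Scarna2 (r = 0.324, adjusted p = 0.014).
The 3 that fell were snoRNAs. Snora74a (5.51 to 128.8 TPM, median of 25.3) had a slope of -0.51 ± 0.13 (adjusted p = 0.000751), with r = -0.408 and rho = -0.379 (permutation p = 0.00011 and 0.00055). Snord17 (52 to 669 TPM, median of 144) had a slope of -0.30 ± 0.10 (adjusted p = 0.00719) and r = -0.337 (permutation p = 0.00231), but its rho was -0.218 with a permutation p of 0.0524. Snora73b (418 to 3049 TPM, median of 1014) had a slope of -0.27 ± 0.09 (adjusted p = 0.0154), with r = -0.308 and rho = -0.270 (permutation p = 0.00568 and 0.0157). Its near-copy Snora73a had -0.21 ± 0.09 and did not pass (adjusted p = 0.0515).
None of these 3 falls was called without the 6 libraries of the end columns. Those 6 had 56.5 to 128.8 TPM of Snora74a against a median of 24.8 in the other 73, and 306 to 633 TPM of Snord17 against a median of 138, all at low Mki67. Without them the slopes were -0.26 for Snora74a (r = -0.218, adjusted p = 0.119), -0.03 for Snord17 (r = -0.041, adjusted p = 0.816) and -0.12 for Snora73b (r = -0.128, adjusted p = 0.402). In those 73 libraries 3 members rose (the third, Snora30, is named after its value was seen) and 0 fell in limma, with 5 at an unadjusted p under 0.05, and with the position as a covariate 2 rose and 0 fell (4 at an unadjusted p under 0.05).
The falls also depended on other settings. With indices of luminal, seminal vesicle, stroma and immune genes as covariates 5 members fell (the same 3, Snora73a and Scarna6), with a pseudocount of 0.1 it was 4 (the same 3 and Snora73a), and on ranks it was Snora74a and Snora73b. With the share of the 20 largest genes as a covariate, limma gave 3 members that rose and 0 that fell (7 at an unadjusted p under 0.05). With TPM as deposited, Scarna10, Scarna2 and Scarna13 rose and only Snora74a fell, all genes split into 10661 that rose and 208 that fell in place of 3309 and 3071, and the median slope of all genes was 0.18 in place of -0.01. Rescaled without the 20 genes, the split was 4892 and 1201. Scarna2 rose in every alternative run, and Scarna10 in every one that tested it.

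Among the 36 libraries Mki67 ran from 20 to 144 TPM (median of 83.5). Slopes over all 36 also take in the difference between the 15 libraries of the end columns and the other 21. Over all 36, 7 of the 43 members rose (16.3%) and 0 fell, while 31.7% of the 14612 genes tested rose and 32.4% fell. The slopes of the members were again less precise, with a median SE of 0.35 against 0.09 over all genes. At an unadjusted p under 0.05 in limma, 10 members passed. Within the 15 libraries limma called 0 members (5 at an unadjusted p under 0.05), while 522 of all genes rose and 482 fell. In the other 21, Scarna6, Snora75 and Snora41 rose and Snord22 fell, with Snora41 and Snord22 named after their values were seen. With the position as a covariate Scarna6, Scarna10 and Snord15a rose, and Snora31 and Snord22 fell. Scarna6 ran from 48.4 to 668 TPM (median of 219) and had a slope of 1.05 ± 0.17 (adjusted p = 4.31e-06). Its r with Mki67 was 0.709 and its rho 0.680 (n = 36, permutation p = 1e-05 and 2e-05), and r was 0.841 without the 2 most extreme libraries in Mki67. Its levels were 215 to 668 TPM (median of 324) in the 15 libraries and 48.4 to 374 TPM (median of 134) in the other 21. The slope was 0.17 within the 15 (r = 0.115, adjusted p = 0.835), 0.75 within the 21 (r = 0.538, adjusted p = 0.0269) and 0.64 with the position as a covariate (adjusted p = 0.0151). Snord15a (4.80 to 96.6 TPM, median of 41) had a slope of 0.93 ± 0.19 (adjusted p = 9.17e-05), with r = 0.628 and rho = 0.626 (permutation p = 2e-05 and 4e-05). Within the 15 its slope was 0.29 (r = 0.171, adjusted p = 0.742) and within the 21 it was 0.75 (r = 0.464, adjusted p = 0.0621).
Snora75, listed at 0 in 12 of the 36 libraries with a median of 14.4 TPM and a highest value of 121.9, had a slope of 2.09 ± 0.46 (adjusted p = 0.000209), with r = 0.601 and rho = 0.609 (permutation p = 0.00022 and 0.00016). Its slope was -0.86 within the 15 (r = -0.191, adjusted p = 0.705) and 1.86 within the 21 (r = 0.511, adjusted p = 0.0354), and with the position as a covariate it did not pass (adjusted p = 0.0689). Snora17, at 0 in 13 of them (median of 18.9, highest of 77.5), had a slope of 1.55 ± 0.52 (adjusted p = 0.0095), with r = 0.445 and rho = 0.491 (permutation p = 0.00709 and 0.00276). Its slope was 0.29 within the 15 (r = 0.050, adjusted p = 0.931) and 1.95 within the 21 (r = 0.471, adjusted p = 0.0557). Adjusted over all 19 relations computed between a member and a marker, the permutation p of r was at most 0.00898 for these 9 with Mki67, and that of rho at most 0.0298 except for Snord17 (0.0785). All 19 were picked because limma had called them on the same libraries, so these values are a description and no further test.
The other 3 that rose were Scarna10 (0.68 ± 0.15, adjusted p = 0.000252), Snord17 (0.57 ± 0.16, adjusted p = 0.00251) and Snora74a (0.57 ± 0.22, adjusted p = 0.0257). These 3 were called in both sets of libraries, Snord17 and Snora74a with the opposite sign. That difference in slope was not tested, and neither call of Snord17 or Snora74a held without the end columns or with the position as a covariate. With the other 7 proliferation genes in place of Mki67, 1 member rose (Scarna10) and 1 fell (Snora31, named after its value was seen). With the share of the 20 genes as a covariate, or with indices of luminal, seminal vesicle, stroma and immune genes, the members that rose were Scarna6, Snora75 and Snord15a, and with the share as a covariate 2 also fell (Scarna13 and Snora31). Rescaling without the 20 genes split all genes into 5278 that rose and 3528 that fell in place of 4629 and 4730.

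Genes of other cell types moved with Mki67 as well. Shares near those of all genes (22.6% rose and 21% fell in the 79, 31.7% and 32.4% in the 36) are no result about a list. Among the 36 libraries, 5 of 6 luminal genes fell and Hoxb13 rose, 6 of 7 stroma genes fell, 3 of 3 immune genes tested fell, 2 of 7 seminal vesicle genes fell, and 4 of 7 neuroendocrine genes rose and 1 fell. Their summed levels ran from 9.22 to 2731 TPM for the luminal list and from 11.8 to 1771 TPM for the stroma list. Among the 79, 1 of 6 luminal genes rose and 4 fell, 2 of 3 immune genes rose and 1 of 7 neuroendocrine genes fell. There limma called 0 of 7 stroma genes (1 at an unadjusted p under 0.05) and 0 of 7 seminal vesicle genes (0 at an unadjusted p under 0.05). In the 73 libraries without the end columns the luminal counts were the same and 1 immune gene rose. Of the 7 neuroendocrine genes limma called 0 in the 73 (0 at an unadjusted p under 0.05). All 7 other proliferation genes rose among the 79 libraries, and 6 of these 7 rose among the 36. Within the 15 libraries of the end columns 4 of the 7 rose, and limma called 0 of 6 luminal, 0 of 7 stroma and 0 of 3 immune genes (3, 0 and 0 at an unadjusted p under 0.05), whereas in the other 21 it was 5 that rose, and 4, 6 and 2 that fell. The part of cell composition in the members' slopes was not tested beyond the covariates above.

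**Figure D3:**
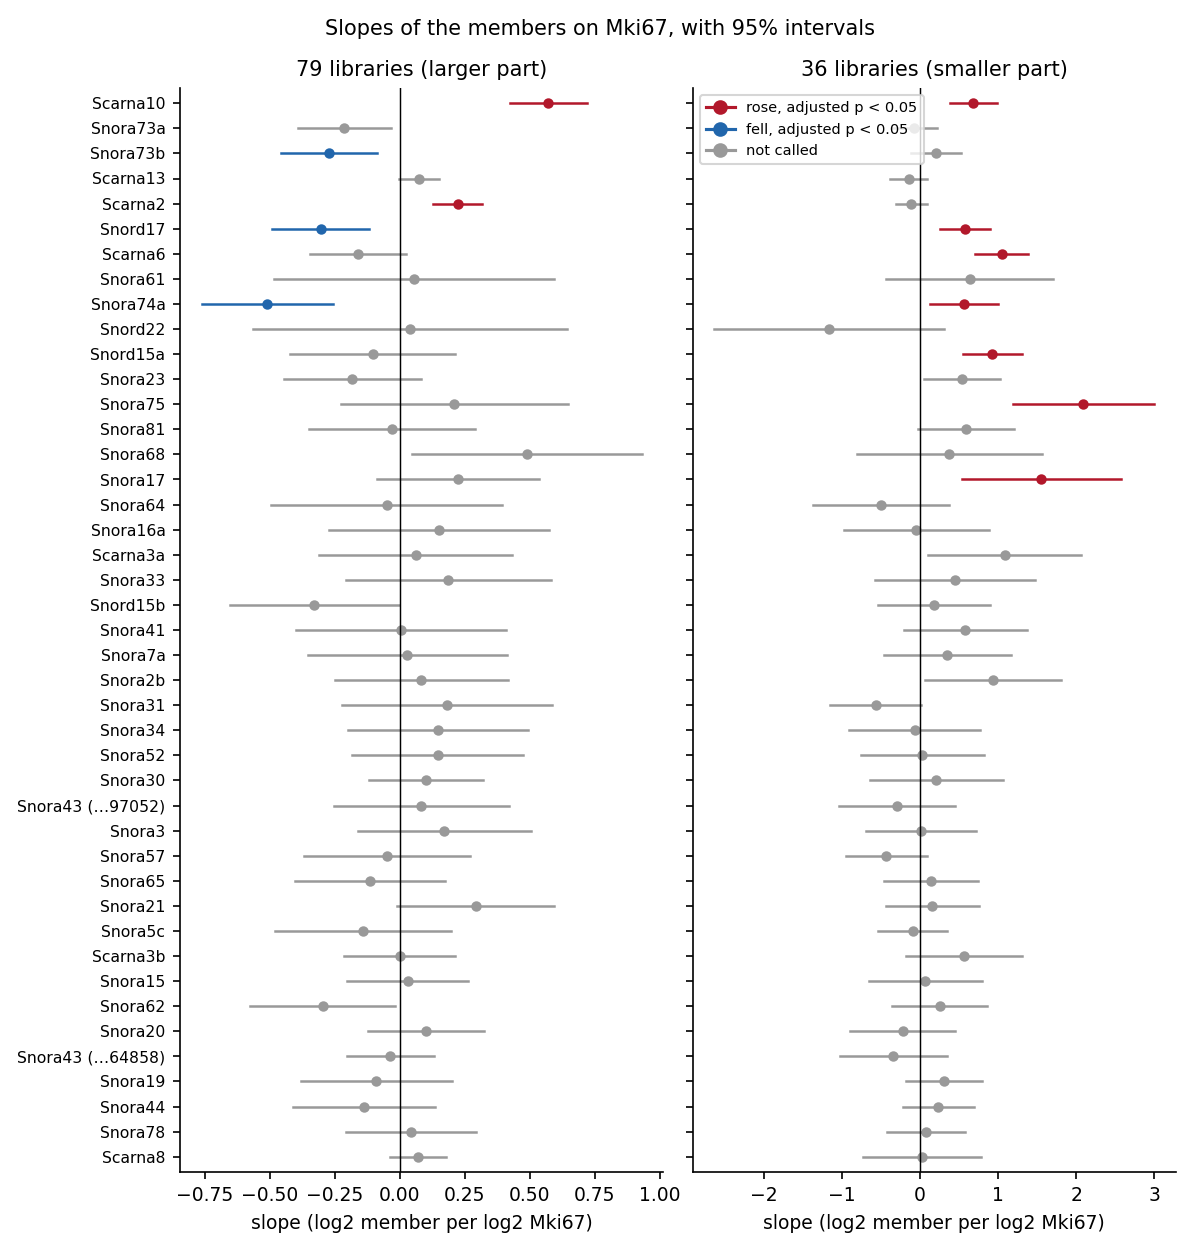
Slope of each member on Mki67 (log2 per log2) in the 79 libraries (left) and the 36 (right), with 95% intervals from the SE, ordered by mean TPM. Red marks members that rose and blue those that fell at an adjusted p under 0.05, and most intervals include 0.

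Chga, which encodes chromogranin A of neuroendocrine cells, was used in the same way. In the 79 libraries it ran from 0.06 to 4.84 TPM and was under 1 TPM in 72, which stood apart from the other 7. No correlation over all 79 is given for that reason. Slopes and counts over all 79 also take in the difference between the 72 and the 7. Scarna3b rose (0.57 ± 0.21, adjusted p = 0.038) and Scarna10 fell (-0.50 ± 0.19, adjusted p = 0.047), while 18.2% of all genes rose and 8.06% fell. The median SE was 0.32 for the members and 0.08 over all genes. Scarna3b was at 0 in 74 of the 79 libraries, and in the 72 libraries under 1 TPM of Chga its slope was -0.43 (adjusted p = 0.394). In those 72, Scarna10 and Scarna2 fell and 0 members rose in limma, with 5 members at an unadjusted p under 0.05. In the 73 libraries without the end columns limma called 0 members (8 at an unadjusted p under 0.05), and the slopes were 0.47 for Scarna3b (adjusted p = 0.251) and -0.25 for Scarna10 (adjusted p = 0.624). All genes there split into 690 that rose and 36 that fell. With TPM as deposited all genes over the 79 libraries split into 2708 that rose and 20 that fell in place of 2667 and 1178, and without the 20 genes into 2293 and 555.
Among the 36 libraries Chga ran from 0.15 to 479 TPM, with 4 libraries at 2.55 or less and the other 32 at 21.1 or more. Of the members, 4 rose and 4 fell (9.3% each), against 19.2% and 18.8% of all genes, with a median SE of 0.12 against 0.04. Those that rose were Snora17 (0.55 ± 0.19), Snora81 (0.35 ± 0.10), Scarna10 (0.24 ± 0.06) and Scarna13 (0.16 ± 0.04). Those that fell were Snora64 (-0.47 ± 0.14), the longer of the overlapping genes named Snora43 (-0.36 ± 0.12), Snora57 (-0.28 ± 0.09) and Snora73a (-0.13 ± 0.05). Their adjusted p ran from 0.00062 for Scarna13 to 0.0394 for Snora73a. None of the 8 was called in the other 32 libraries, where limma called 0 members (3 at an unadjusted p under 0.05) and the slope of Scarna10 was -0.12. In the 21 libraries without the end columns 4 rose and 4 fell, 7 of them among these 8 (Snora73b in place of Snora57), and all 4 low libraries are among these 21. Within the 15 limma called 0 members (4 at an unadjusted p under 0.05), with a slope of -0.18 for Scarna10 (adjusted p = 0.303) and 0.21 for Scarna13 (r = 0.575, adjusted p = 0.175). With TPM as deposited all genes split into 1452 that rose and 3536 that fell in place of 2802 and 2754.
All 8 proliferation genes fell with Chga in the 79 libraries and 0 of 8 passed in the 36 (0 at an unadjusted p under 0.05 in limma), while 5 of 6 and 6 of 6 other neuroendocrine genes rose. Without the end columns 0 of the 8 proliferation genes passed in the 73 libraries (0 at an unadjusted p under 0.05 in limma) and 4 of 6 neuroendocrine genes rose. With Chga, 4 of 7 stroma genes rose in the 79 libraries and 2 fell in the 36, and 2 of 6 luminal genes fell in each, with 1 that rose in the 36. In the 73, 0 of 7 stroma and 0 of 6 luminal genes passed (4 and 0 at an unadjusted p under 0.05 in limma). The counts of these lists in the 21 were those of the 36, and within the 15 limma called 0 of either (0 at an unadjusted p under 0.05). Seminal vesicle genes gave 0 of 7 in the 79 and in the 36, with 2 and 0 at an unadjusted p under 0.05 in limma. Of 3 immune genes, 0 passed in the 79 (0 at an unadjusted p under 0.05) and 1 fell in the 36.

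The proteins that build and carry the snoRNAs were described from lists, and their counts are read against the shares of all genes called with the same marker (22.6% rose and 21% fell with Mki67 in the 79, 31.7% and 32.4% in the 36, 18.2% and 8.06% with Chga in the 79, 19.2% and 18.8% in the 36). Lists of 4 to 18 genes with shares near these give no result of their own. In the 79 libraries, all 4 core proteins of box C/D particles rose with Mki67, from Snu13 (0.08 ± 0.02) to Nop56 (0.19 ± 0.03). Of the 4 core proteins of box H/ACA particles 0 passed in limma (1 at an unadjusted p under 0.05), and their slopes ran from -0.04 for Nop10 (adjusted p = 0.452) to 0.09 for Gar1 (adjusted p = 0.0653). Dkc1, the pseudouridine synthase among them, is X-linked and had 0.33 to 3.23 TPM. Of 10 assembly factors 3 rose and 0 fell, with Pih1d1 highest (0.28 ± 0.04). Of 5 Cajal body proteins 2 rose and 0 fell. Of 6 processing and decay factors 3 rose, led by the debranching enzyme Dbr1 (0.17 ± 0.02), and 2 fell. Of 14 ribosome biogenesis genes 4 rose and 2 fell, and of 18 noncoding snoRNA hosts 2 rose and 4 fell. In the 73 libraries without the end columns 3 of the 4 box C/D proteins rose, 1 of the 4 box H/ACA proteins fell, and the ribosome biogenesis genes gave 1 that rose and 5 that fell.
Among the 36 libraries the box C/D proteins gave 2 that rose and 0 that fell with Mki67, the box H/ACA proteins 2 and 2, the assembly factors 2 and 2, and the Cajal body proteins 2 and 1. The processing factors gave 3 that rose and 1 that fell, with the exonuclease gene Xrn1 highest (0.80 ± 0.10). Ribosome biogenesis genes gave 4 and 3, with Ncl highest (0.55 ± 0.05), and the noncoding hosts 7 and 2, with Rian highest (1.80 ± 0.32). Within the 15 libraries of the end columns 1 noncoding host rose (4 of 18 at an unadjusted p under 0.05 in limma) and 0 genes of the other lists in this paragraph passed (0 to 2 of each list at an unadjusted p under 0.05), while in the other 21 the noncoding hosts gave 7 and 1, the box C/D proteins 2 and 0, and the box H/ACA proteins 1 and 0.
With Chga, 2 box C/D and 2 box H/ACA proteins fell in the 79 libraries and 0 rose. In the 36, 1 box C/D protein fell and 0 of 4 box H/ACA proteins passed in limma (1 at an unadjusted p under 0.05). The assembly factors gave 0 that rose and 1 that fell in the 79 libraries and 1 and 0 in the 36. The Cajal body proteins gave 2 and 0 in both, the processing factors 0 and 1, then 1 and 2, the ribosome biogenesis genes 0 and 3, then 2 and 0, and the noncoding hosts 6 and 6, then 2 and 5. In the 73 libraries without the end columns 0 box C/D and 0 box H/ACA proteins passed with Chga in limma (1 of each at an unadjusted p under 0.05), and the noncoding hosts gave 3 and 4. There 1 assembly factor fell. Of the Cajal body proteins, processing factors and ribosome biogenesis genes 0 passed there (0, 0 and 1 at an unadjusted p under 0.05).

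A host was taken to be the annotated gene, other than a small RNA, on the same strand that contains the whole member, with protein-coding genes first. It was found for 38 of the 43 members, and 35 pairs with 30 different hosts could be tested. Of the 35 members, 17 overlapped exons of the host in the annotation and 18 were wholly intronic. The member's mean TPM was above that of its host in 6 pairs, those of Scarna10, Snora73a, Snora73b, Snord17, Scarna6 and Snora61. The ratio of the means ran from 0.00279 (Snora7a and Rpl32, named after their values were seen) to 204 (Scarna10 and Ncapd2), with a median of 0.0936. These ratios set short members against longer host genes, and whether TPM can be compared across these lengths was not tested.
In the 79 libraries, 1 of the 35 host pairs was called and was positive, against 1.85% of 511770 member and gene pairs that were called positive and 0.771% called negative. The median r of the host pairs was -0.003 and that of all pairs 0.010, and r was above 0 in 17 of 35. The median was 0.083 for the 17 exonic members and -0.107 for the 18 intronic ones.
The called pair was Scarna10 and Ncapd2, a condensin subunit with 1.14 to 134.7 TPM over all libraries (median of 10.6). It had r = 0.649 and rho = 0.650 (n = 79, a permutation p of 1e-05 in both cases), r = 0.639 without the 2 most extreme libraries in Ncapd2, and an adjusted p of 6.41e-08 in limma over all pairs. The annotation places 237 of the 325 bases of Scarna10 in exons of Ncapd2, so some reads could count for either. By r, Ncapd2 ranked 300 of 14622 genes for Scarna10, and it rose with Mki67 itself (0.75 ± 0.02). In the 73 libraries without the end columns r was 0.564 and the adjusted p 7.3e-05.
Next came Scarna6 and Atg16l1, an autophagy gene (r = 0.351, adjusted p = 0.0632), Snora30 and Srcap, a chromatin remodeller (r = 0.270), Snora15 and Cct6a, a chaperonin subunit (r = 0.203), and Snora2b and Kansl2 (r = 0.199). None of these 4 passed in limma over all pairs. These pairs and the lowest below were picked by their r in the same libraries. Their permutation p-values are therefore a description and no further test. Adjusted over the 18 host relations, the permutation p of r was 0.00619 for Scarna6 and 0.026 for Snora30. It was 0.119 for both Snora15 and Snora2b. That of rho was 0.0338 for Scarna6 and above 0.05 for Snora30, Snora15 and Snora2b. The lowest were Snora23 and Ipo7, an importin (r = -0.275), Snord15a and the ribosomal protein gene Rps3 (r = -0.281), and Snord17 and the sorting nexin gene Snx5 (r = -0.293, rho = -0.093), and none of these 3 passed in limma over all pairs. By permutation the adjusted p of r was 0.026, 0.026 and 0.0246, and that of rho 0.055, 0.00654 and 0.494. Without the end columns r was 0.329 for Scarna6 and Atg16l1, 0.243 for Snora30 and Srcap, -0.117 for Snora23 and Ipo7, -0.142 for Snord15a and Rps3, and 0.153 for Snord17 and Snx5. Over all 79 libraries Snord17 fell with Mki67 while Snx5 rose (0.12 ± 0.03). In the 73 the slope of Snord17 was -0.03 (adjusted p = 0.816 in limma).

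Among the 36 libraries, 3 host pairs were called positive and 1 negative, against 3.41% and 2.36% of 511420 pairs. The median r was 0.063 and 21 of 35 were above 0. Without the end columns 1 pair was called in the 21 libraries and with the position as a covariate it was also 1, Scarna10 and Ncapd2 in both, while within the 15 limma called 0 (3 at an unadjusted p under 0.05). Scarna6 and Atg16l1 (4.22 to 24.7 TPM over all libraries, median of 12.9) correlated with r = 0.757 and rho = 0.750 (n = 36, a permutation p of 1e-05 in both cases), with an adjusted p of 5.18e-05 in limma. With TPM as deposited this pair did not pass (r = 0.411, adjusted p = 0.169), nor did it in the 21 libraries (r = 0.520, adjusted p = 0.412) or the 15 (r = 0.398). Atg16l1 itself had 15.7 to 23.7 TPM in the 15 libraries (median of 19.7) and 8.09 to 24.7 in the 21 (median of 16.3). Scarna6 shares no exon base with another gene. Scarna10 and Ncapd2 had r = 0.753 and rho = 0.630 (permutation p = 1e-05 and 5e-05), with an adjusted p of 2.79e-05 in limma, and r was 0.702 in the 21 libraries (adjusted p = 0.0489) and 0.620 in the 15 (adjusted p = 0.879). Snora75 and Ncl, which encodes nucleolin, had r = 0.676 and rho = 0.694 (permutation p = 1e-05 and 2e-05), with an adjusted p of 0.000495 in limma, and all 133 bases of Snora75 lie in annotated Ncl exons. That r was 0.575 in the 21 libraries and 0.082 in the 15. Atg16l1, Ncapd2 and Ncl rose with Mki67 as their members did.
Snord15a and Rps3 had r = -0.485 and rho = -0.553 (n = 36, permutation p = 0.00266 and 0.00068), with an adjusted p of 0.044 in limma. Snord15a is intronic to Rps3 and shares no exon base with it. With rising Mki67, Snord15a rose while Rps3 fell (-0.38 ± 0.10, adjusted p = 0.00123). The negative pair no longer passed with TPM as deposited, with rescaling without the 20 genes, with a pseudocount of 0.1, without a filter or with the share of the 20 genes as a covariate, and r was -0.245 in the 21 libraries and -0.087 in the 15. Over the 18 host relations computed, the adjusted permutation p of r was at most 0.00798 for the 5 calls. These pairs were already called in limma on the same libraries, so this is no further test.
Snora73a and Snora73b lie within both Rcc1, the Ran exchange factor used as the host here, and Snhg3. Snora73a had r = -0.064 with Rcc1 and -0.171 with Snhg3 in the 79 libraries, and -0.294 and 0.304 in the 36. Snora73b had -0.127 and -0.181, then -0.072 and 0.101. Snora61, Snora44 and the member named Snora16a share the host Snhg12. All their bases (130, 129 and 136) lie in annotated Snhg12 exons, so some reads could count for either gene. Snora61 had r = 0.188 with Snhg12 in the 79 libraries and 0.397 in the 36, where Snhg12 ranked 22 of 14612 genes by r. Neither value passed in limma.

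**Figure D4:**
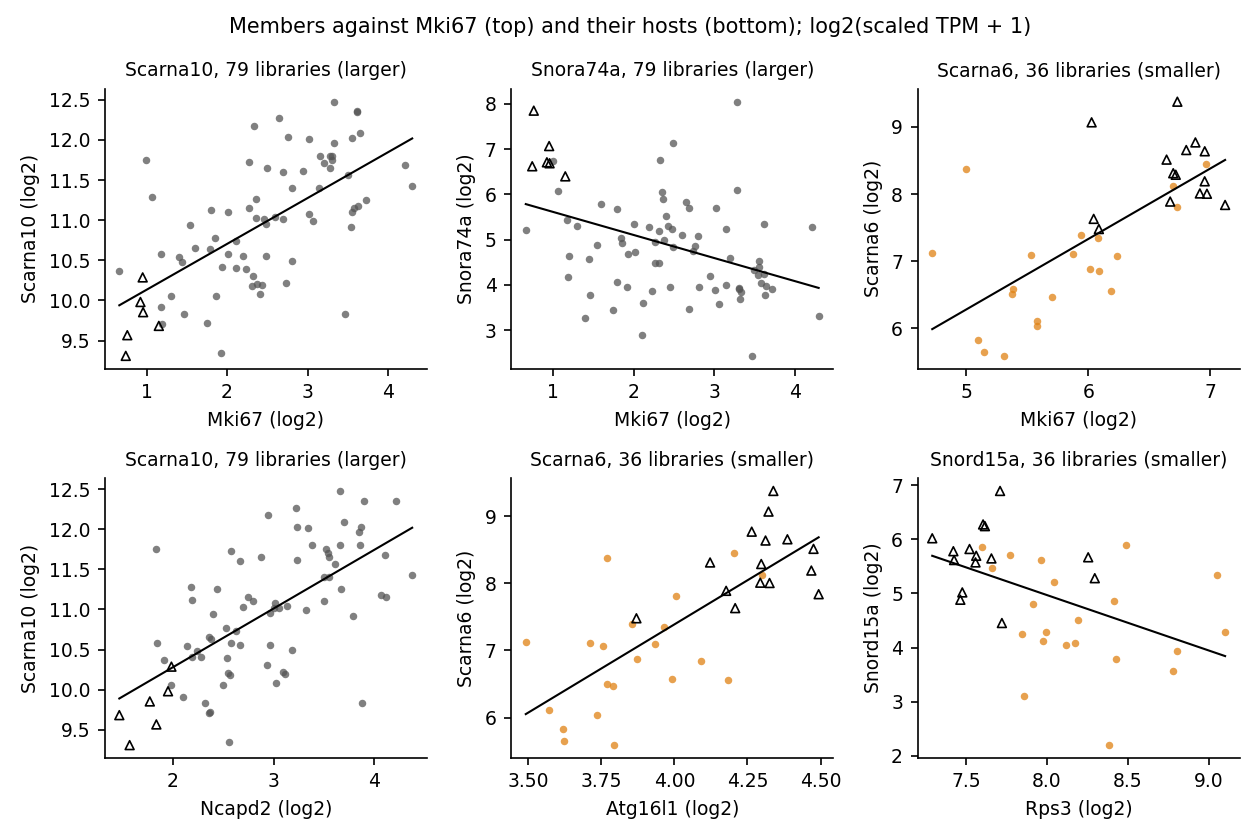
Members against Mki67 (top) and against their hosts (bottom), each axis log2(scaled TPM + 1), 1 point a library, with least-squares lines over all points of a panel. Grey panels hold 79 libraries and orange panels 36, and open triangles are the 21 libraries of the end columns, which lie at low Mki67 in the 79 and at high Mki67, Scarna6 and Atg16l1 in the 36.

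Correlations among the members were taken as a description over libraries that share a scaling, with no test. Among the 8 never at 0, Snora73a, Snora73b, Snord17, Scarna6 and Snora74a, which lie on 4 chromosomes, had r from 0.784 to 0.982 with each other in the 79 libraries (10 pairs, median of 0.865). Scarna10, Scarna2 and Scarna13 had r from 0.331 to 0.610 with each other (3 pairs), and between these 3 and the other 5 r ran from -0.340 to 0.218 (15 pairs). Among the 36 libraries the first group had r from 0.240 to 0.919 (median of 0.741), the second from 0.268 to 0.492, and the pairs between them from -0.200 to 0.721. These groups were drawn after the values were seen. Without the end columns, r in the 73 libraries was 0.767 to 0.981 within the first group, 0.179 to 0.523 within the second and -0.157 to 0.416 between them. In the 21 libraries it was 0.227 to 0.971, 0.412 to 0.510 and -0.284 to 0.651, and in the 15 it was -0.139 to 0.921, -0.358 to 0.447 and -0.522 to 0.635. Over all 903 pairs of members the median r was 0.009 in the 79 libraries and 0.023 in the 36. The 6 pairs that share a host had a median r of 0.093 and 0.153, and the highest of them was Snora73a with its near-copy Snora73b (0.982 and 0.919).
Other short structured RNAs, also chosen after their values were seen, correlated with the first group in the 79 libraries, but Rn7s1 did so less. Its r with those 5 members was 0.369 to 0.466 in the 79 and -0.111 to 0.238 in the 36. Over these 79 libraries, r with Rmrp, the RNA of RNase MRP, was 0.706 to 0.895 for those 5 members, r with Rpph1, the RNA of RNase P, was 0.682 to 0.807, and r with Rn7sk was 0.684 to 0.858. For Scarna13, Scarna2 and Scarna10, r with Rmrp was -0.137, 0.047 and 0.235, but Scarna10 had 0.436 with Rn7sk and 0.375 with Rpph1. In the 73 libraries without the end columns r with Rmrp was 0.764 to 0.924 for the 5 and -0.071 to 0.344 for the 3. The share of the 20 largest genes had r from 0.487 to 0.576 with the 5 members and -0.189 with Scarna10, which had 0.742 with it in the 36. Over the 36 the picture was mixed. There r with Rmrp was 0.462 to 0.842 for the 5 and 0.436 for Scarna10, r with Rpph1 was 0.309 to 0.732 for the 5 and 0.688 for Scarna10, and r with Rn7sk was -0.028 (Snora73a) to 0.784 (Scarna6) for the 5 and 0.771 for Scarna10. Within the 15, r with Rmrp was 0.049 to 0.400 for the 5, and within the 21 it was 0.472 to 0.772. With Mki67 both Rmrp (0.56 ± 0.13) and Rn7sk (0.60 ± 0.08) rose in the 36, while in the 79 neither passed (-0.07, adjusted p = 0.466, and -0.01, adjusted p = 0.882). Rn7s1 fell in the 79 (-0.33 ± 0.06, adjusted p = 8.95e-06 in limma) and did not pass in the 36 (-0.05, adjusted p = 0.730). The 6 libraries of the end columns had 256036 to 301840 TPM of Rn7s1 against a median of 214871 in the other 73. The part of length or library composition in these correlations was not tested.

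**Figure D5:**
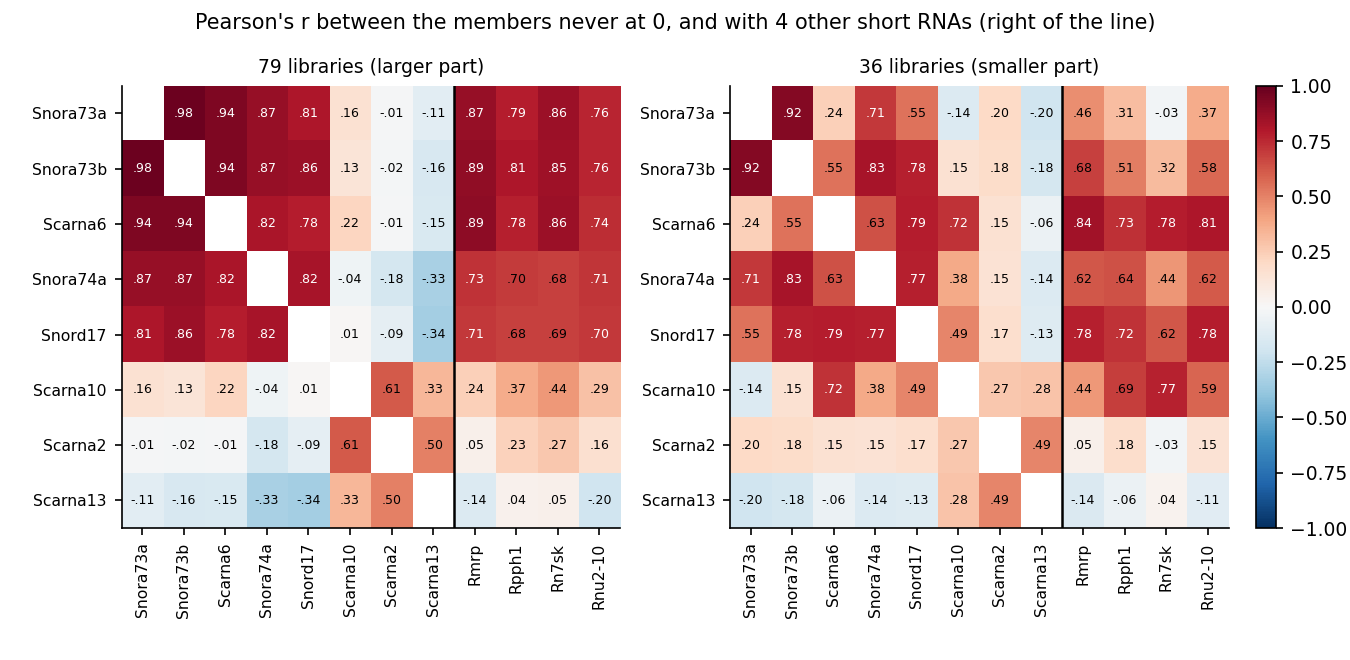
Pearson's r over the 79 libraries (left) and the 36 (right) between the 8 members never at 0, and with 4 other short RNAs to the right of the line. Rn7s1, with lower r in the 79, is not shown. Over the 79 libraries 5 members form a block with r of at least 0.784, and Scarna10, Scarna2 and Scarna13 stand outside it.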

How the data were processed

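RNA of the (TRAMP x WSB) F2 prostates was depleted of ribosomal RNA and sequenced as 126-base pairs. Trimmed reads were aligned by the authors to an allele-specific transcriptome on GRCm38 with Bowtie2 (2.2.5 in the submitters' processing notes) and genes were quantified with RSEM (1.2.20). The authors deposited TPM, scaled to a fixed total within each library, so depth and counting error are unknown. The annotation they used is not given in the sources used here. All columns of the table were used (0 left out).

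Names, positions, hosts and sequences were taken from GENCODE M21 (GRCm38), which held 45136 of the 45699 genes. Members and gene lists were chosen with earlier results of these data known. A mixture of 2 normal distributions on the first principal component (14623 genes that average 1 TPM or more, 48.7% of variance) split the libraries, with a fall in BIC of 196 and an Ashman D of 6.10. TPM was divided by median-of-ratios factors over 7525 genes, and log2 values with a pseudocount of 1 were fitted with limma 3.58.1 in R 4.3.3 for the same genes where they varied. Host pairs were adjusted over all member and gene pairs. Named relations had two-sided tests of 100000 permutations, 19 with a marker and 18 with a host, adjusted by Benjamini-Hochberg within each family. The relations were picked by their limma calls or their r in these data, so the permutation p-values are a description. Libraries carry different identifiers, but no separate label gives the mouse. Each library was taken as a separate mouse, and p-values measure the spread between libraries on that assumption. The fits were also run on simulated normal values with known slopes, drawn independently for each gene. These lack the zeros, the correlated genes and the end columns of the real data, so they check the code and not the calls. Copies were sought with blastn 2.17.0.

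Genes named are the 10 highest members, every Scarna, the 3 on each side of the threshold, the 4 largest slopes in each direction, the 5 highest and 3 lowest host pairs of the 79 libraries, Snora61, hosts, and list genes with the largest slopes. The pair of Snora75 and Ncl, Snhg3 beside Rcc1, and those so marked were named after their values were seen. The lists were proliferation, neuroendocrine, luminal, seminal vesicle, stroma, immune, box C/D and box H/ACA core proteins, assembly factors, Cajal body proteins, processing and decay, ribosome biogenesis and noncoding hosts. Alternatives changed the scaling, pseudocount, filter, libraries, covariates, marker or hosts counted. The 21 columns at the end of the table, which hold the same libraries as the end of the sample list in identifier order, were left out, taken alone or used as a covariate, an alternative chosen after the data were seen.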

Additional observations from a re-analysis of the deposited data

How the results depend on the processing

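No paired analysis was possible because there is 1 group. The members called with Mki67 in the 79 libraries (5) were 3 with the share of the 20 largest genes as a covariate. With Mki67 in the 36 libraries (7), 3 were called with tissue indices as covariates and 2 with the other proliferation genes as the marker. With Chga in the 79 libraries (2), 1 was called from TPM as deposited, 0 without the 20 genes (4 at an unadjusted p under 0.05), 1 without a filter and 0 with tissue indices (2 at an unadjusted p under 0.05), all in limma. With Chga in the 36 libraries (8), 1 was called on ranks, 1 with the share covariate, 5 with tissue indices and 0 without the 4 libraries low in Chga (3 at an unadjusted p under 0.05, limma), where the slopes of Snora81 (-0.058), Scarna10 (-0.116) and Snora64 (0.215) changed sign. In the 72 libraries under 1 TPM of Chga the slope of Scarna3b changed sign (-0.434). Both of these restrictions on Chga were chosen after the data were seen. Host pairs called in the 79 libraries (1) were 2 with the share covariate, and in the 36 libraries (4) they were 2 from TPM as deposited and 2 among the 12 members that share no exon base. The last 21 columns of the table were left out, taken alone where they hold 15 of the 36 libraries, or used as a covariate, also after the data were seen. With Mki67 in the 79 libraries 3 members were called without them and 2 with the covariate, and in the 36 libraries 4 without them and 0 in the 15 (5 at an unadjusted p under 0.05), where the slope of Snora75 changed sign (-0.855). With Chga in the 79 libraries 0 were called without them and 0 with the covariate (8 and 5 at an unadjusted p under 0.05), and in the 15 of the 36 libraries 0 (4 at an unadjusted p under 0.05), where the slopes of Snora17 (-0.102), Scarna10 (-0.185) and Snora73a (0.107) changed sign, all in limma. Host pairs called in the 36 libraries were 1 without them, 0 in the 15 (3 at an unadjusted p under 0.05) and 1 with the covariate. The cause of these changes was not tested, except that fewer libraries or pairs entered where so named. The 43 members would be 49 at a mean of 0.5 TPM, 30 at 2 TPM and 12 with a median of at least 1 TPM. The 1 library left out by plan, W78022, is among the 79, so that alternative does not apply to the 36. Its name resembles that of W7822, and whether the 2 libraries come from different mice was not tested. Scarna10 could not be tested without the 20 genes, since it is one of them. TPM keeps no depth, so a member at 0 was not shown to be absent.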
